A study of Mus musculus with 12 samples.

Results

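The genes of cholesterol and fatty acid synthesis that answer to the SREBP transcription factors were followed in white matter cells selected for the astrocyte transporter GLAST. The list was given as 32 symbols and was matched to the transcript clusters of the array by symbol, taking the brightest cluster of a gene. It gave 30 measured members of 19505 genes in all. These were 16 enzymes of the sterol pathway, 4 regulators (Srebf2, Scap, Insig1 and the sterol carrier Stard4) and 10 enzymes of fatty acid synthesis. Srebf1 and Scd2 were not analysed here. Each member had a single transcript cluster. The arrays came from C57BL/6 mice given a powdered diet with 0.2% (w/w) cuprizone, a copper-binding toxin used to strip myelin, from an age of 8 to 12 weeks. There were 4 groups of 3 biological replicates, with 1 array each: wild-type mice after 0, 3 and 12 weeks of the diet, and mice deficient in GnT-IX, the brain glycosyltransferase encoded by Mgat5b, after 12 weeks. Every deficient animal had thus also received cuprizone, and no untreated deficient group and no untreated group of matched age was analysed here, so diet and age cannot be told apart. The sources used here do not give how or in which cells GnT-IX was disrupted, or whether animals were pooled for an array.

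As background, cholesterol is built from acetyl-CoA through mevalonate, farnesyl diphosphate, squalene and lanosterol. When sterol in the endoplasmic reticulum is low, the escort protein encoded by Scap carries the SREBP precursor to the Golgi, where it is cut, and the released factor switches on most genes of the path. When sterol is plentiful, Insig proteins hold Scap back, and these genes are turned down together. The brain makes nearly all of its own cholesterol, with astrocytes supplying neurons and oligodendrocytes using large amounts for myelin.

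Median log2 values of the arrays ran from 5.38 to 5.45, their lower quartiles between 3.73 and 3.85, and arrays of a group correlated across genes with r from 0.974 to 0.985. Mgat5b, the disrupted gene, was at 3.70, 4.19 and 4.06 in the deficient arrays and between 5.57 and 6.49 in the 9 wild-type arrays (difference at 12 weeks -1.82, adjusted p = 0.00159). The 17 measured homeostatic astrocyte markers averaged 9.95 to 10.3 in the 0-week arrays, but the 11 mature oligodendrocyte markers also averaged 9.47 to 9.82 there, so the selected cells held transcripts of another type that makes cholesterol. The 14 microglia and macrophage markers averaged 5.12 to 5.71 at 0 weeks, 6.62 to 8.91 at 3 weeks and 7.95 to 9.05 at 12 weeks in wild-type arrays. The 8 choroid plexus markers averaged 4.20 to 5.89 in wild-type arrays and 8.11, 7.08 and 5.43 in the deficient ones. In such bulk samples, fewer cells of a type and less RNA per cell cannot be told apart.

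The sterol enzymes fell after 3 weeks of cuprizone, at every stage of the path. Of 16 sterol enzymes, 10 were called lower and none higher, and all 16 differences from 0 weeks lay below 0, with a median of -0.89 on the log2 scale. Over all genes, 1.63% were called lower and 1.61% higher (limma, Benjamini-Hochberg adjusted p under 0.05), and the median difference was -0.017. With the regulators and fatty acid enzymes included, 11 of 30 members were called lower and none higher, with a median of -0.65. In 18 of the 30 members each of the 3 arrays at 3 weeks lay below each of the 3 at 0 weeks, against 10.5% of all genes. The count of called members was 5, 7 and 6 without replicate 1 of the 0-week group, replicate 2 of the 0-week group and replicate 1 of the 3-week group, the 3-week array with the highest microglial markers.

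**Figure D1:**
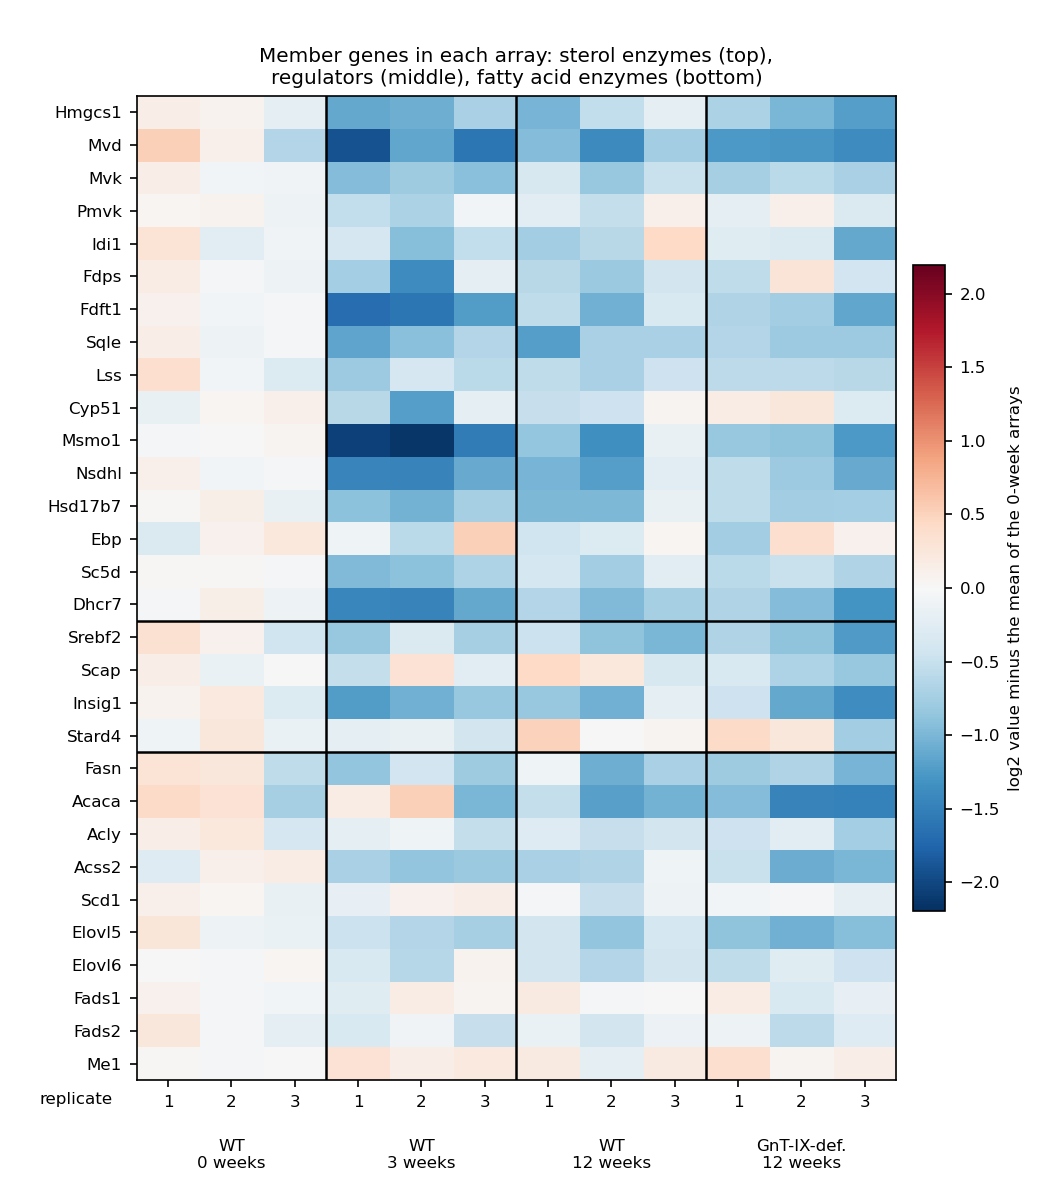
Each row is a member gene and each column an array, coloured by the log2 value minus the mean of that gene in the 3 wild-type arrays at 0 weeks. Rows are sterol enzymes, regulators and fatty acid enzymes from top to bottom. The blue band of sterol enzymes at 3 weeks is deepest for Msmo1, Mvd and Fdft1, and it is paler in replicate 3 of the wild-type 12-week group.

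The steps up to farnesyl diphosphate had 3 of 6 member enzymes called lower at 3 weeks, with a median of -0.83. Hmgcs1, the cytosolic HMG-CoA synthase that starts the path, was at 7.61, 7.55 and 7.25 at 0 weeks and at 6.35, 6.39 and 6.76 at 3 weeks. It fell by 0.97 (SE 0.22, adjusted p = 0.0266), and the groups did not overlap. Mvk, mevalonate kinase, was at 6.54, 6.33 and 6.32 and then at 5.44, 5.61 and 5.47. The 3-week values were close together and all lower, a fall of 0.89 (SE 0.17, adjusted p = 0.00926). Mvd, the decarboxylase that makes isopentenyl diphosphate, was at 8.13, 7.72 and 6.97 and then at 5.69, 6.47 and 6.02. Its 0-week arrays were spread over more than a log2 unit, yet the groups were apart and the fall was 1.55 (SE 0.27, adjusted p = 0.00628). The other 3 enzymes of this stage were not called. Pmvk, phosphomevalonate kinase, differed by -0.44 (adjusted p = 0.321), and Fdps, farnesyl diphosphate synthase, by -0.78 (adjusted p = 0.152). Idi1, the isopentenyl diphosphate isomerase, had means of 3.42 at 0 weeks and 2.80 at 3 weeks, below the lower quartile of the arrays, and differed by -0.61 (adjusted p = 0.340).

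At the squalene stage 2 of 3 enzymes were called lower at 3 weeks. Fdft1, squalene synthase, which commits farnesyl diphosphate to sterols, was at 9.92, 9.77 and 9.78 at 0 weeks and at 8.14, 8.24 and 8.60 at 3 weeks. The gap between the groups was over 1 log2 unit, and the fall of 1.50 (SE 0.21, adjusted p = 0.00179) is 2.82-fold on the linear scale. Sqle, the squalene epoxidase, was at 7.03, 6.77 and 6.86 and then at 5.72, 5.97 and 6.25, a fall of 0.91 (SE 0.19, adjusted p = 0.0170). Lss, which closes the ring to lanosterol, differed by -0.58 (adjusted p = 0.115) and was not called, although its 3 values at 3 weeks all lay below those at 0 weeks.

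From lanosterol to cholesterol 5 of 7 enzymes were called lower, with a median of -0.89, and these include the enzymes that take the extra methyl groups at the sterol's carbon next to the hydroxyl away. Msmo1, the methyl oxidase of that reaction, was at 8.43, 8.46 and 8.54 at 0 weeks and at 6.42, 6.33 and 6.94 at 3 weeks. It had the largest fall among the members, 1.91 (SE 0.26, 95% confidence interval -2.46 to -1.37, adjusted p = 0.00132), or 3.77-fold, and ranked 6 among all 19505 genes by the size of a fall. Nsdhl, the dehydrogenase that acts next, was at 9.11, 8.93 and 8.95 and then at 7.55, 7.52 and 7.89, a fall of 1.34 (SE 0.23, adjusted p = 0.00583). Hsd17b7, the reductase that follows, was at 7.17, 7.27 and 6.98 and then at 6.24, 6.10 and 6.41, a fall of 0.89 (SE 0.21, adjusted p = 0.0324). All enzymes of this demethylation that were measured thus fell, and in none of them did the groups overlap. Hsd17b7 was the weakest of these calls and missed the threshold when any 1 of the 6 arrays compared was left out.

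Of the other enzymes after lanosterol, Dhcr7 and Sc5d were called and Cyp51 and Ebp were not. Dhcr7, the reductase that turns dehydrocholesterol into cholesterol, was at 9.15, 9.31 and 9.07 at 0 weeks and at 7.74, 7.71 and 8.05 at 3 weeks. It fell by 1.34 (SE 0.19, adjusted p = 0.00179) with a gap of about a log2 unit between the groups. Sc5d, the desaturase before it, was at 9.22, 9.22 and 9.15 and then at 8.23, 8.29 and 8.51, a fall of 0.85 (SE 0.17, adjusted p = 0.0132). Cyp51, the lanosterol demethylase, differed by -0.67 (adjusted p = 0.175) and was not called, although its groups did not overlap. Ebp, the sterol isomerase, differed by only -0.053 (95% confidence interval -0.69 to 0.59, adjusted p = 0.960), and its arrays ran from 6.62 to 7.74 at 3 weeks. The calls of Mvd, Fdft1, Msmo1, Nsdhl and Dhcr7 held when any single array was left out. That of Mvk was lost without replicate 1 of the 0-week group, and that of Sqle without replicate 1 of the 0-week or of the 3-week group. Sc5d lost its call without replicate 1 or 2 of the 0-week group or replicate 1 of the 3-week group, and Hmgcs1 without replicate 1 or 2 of either group.

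**Figure D2:**
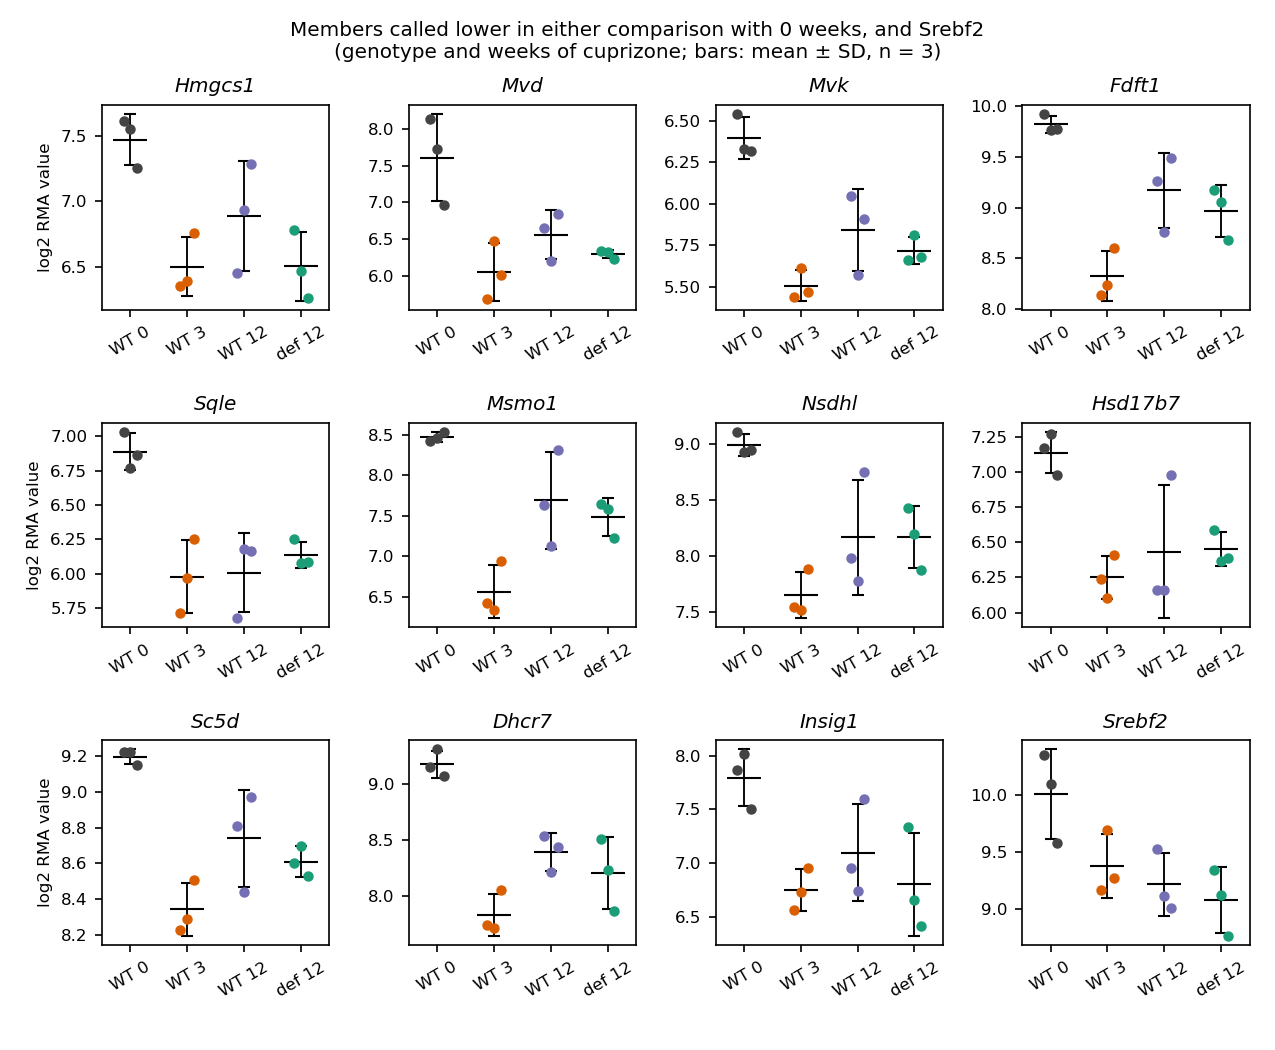
Points are the log2 values of single arrays for the 11 members called lower at 3 weeks and for Srebf2, with the mean and SD of 3 arrays per group, each panel on its own axis. Wild-type groups are given by weeks of cuprizone and "def 12" is the GnT-IX-deficient group at 12 weeks. At 3 weeks the points of all 11 called members lie below those at 0 weeks, and at 12 weeks replicate 3 of the wild-type group is the highest for Msmo1 (8.32) and Nsdhl (8.75).

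Most members are known targets of SREBP, so their promoters are shown beside the values. RefSeq windows on GRCm38.p6, from 250 bases before to 50 after a start site, matched 24 of the 30 measured members. Fdps, Fdft1, Sqle, Stard4, Scd1 and Fads1 had none. Each window was searched on both strands for TCACNCCA, a core of the sterol response element bound by SREBP, for CCAAT, the box bound by NF-Y, a factor known to act with SREBP, for GGGCGG, bound by Sp1, and for CACGTG, an E-box. The sterol core was found in 3 of 24 members (12.5%), Hmgcs1, Msmo1 and Srebf2, and in 4.97% of all 27025 genes with a window. CCAAT was found in 20 of 24 members (83.3%) and in 41.1% of all genes, GGGCGG in 19 (79.2%) against 38.2%, and CACGTG in 6 (25%) against 8.09%. All genes with a window were not filtered for being measured or protein-coding, whereas the members are protein-coding, so the sets are unlike. Whether the members differ from genes with like promoters was not tested. All 9 members called lower at 3 weeks that had a window held CCAAT, and so did 11 of the 15 that were not called. A match describes the letters of the window and does not show binding in these cells.

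The windows of Msmo1, Hmgcs1 and Srebf2 hold the sterol core, and that of Mvd, the second largest fall, holds CCAAT without it. Sequences are written 5′ to 3′ on the gene's strand, with matches to TCACNCCA and to CCAAT or its reverse complement in capitals. Counted from the start site as 0, the core begins at base -177 in Msmo1, -137 in Hmgcs1 and -162 in Srebf2. Msmo1 has 3 CCAAT matches, Hmgcs1 has 4, Srebf2 has 1 and Mvd has 2. The windows are chr8:64733529-64733828 (minus strand) for Msmo1, chr13:119690101-119690400 (plus strand) for Hmgcs1, chr15:82147019-82147318 (plus strand) for Srebf2 and chr8:122443373-122443672 (minus strand) for Mvd.
Msmo1: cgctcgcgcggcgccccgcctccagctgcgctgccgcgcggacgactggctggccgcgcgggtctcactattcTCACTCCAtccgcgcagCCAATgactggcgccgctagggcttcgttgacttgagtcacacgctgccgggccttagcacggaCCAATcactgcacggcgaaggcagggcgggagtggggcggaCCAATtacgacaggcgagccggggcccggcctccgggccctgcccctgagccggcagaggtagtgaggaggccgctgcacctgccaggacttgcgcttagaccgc
Hmgcs1: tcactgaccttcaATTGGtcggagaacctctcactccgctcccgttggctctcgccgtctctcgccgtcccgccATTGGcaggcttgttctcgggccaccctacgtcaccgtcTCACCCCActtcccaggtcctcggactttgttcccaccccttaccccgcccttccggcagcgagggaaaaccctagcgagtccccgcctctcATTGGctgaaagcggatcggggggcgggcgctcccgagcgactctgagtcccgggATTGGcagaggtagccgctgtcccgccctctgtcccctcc
Srebf2: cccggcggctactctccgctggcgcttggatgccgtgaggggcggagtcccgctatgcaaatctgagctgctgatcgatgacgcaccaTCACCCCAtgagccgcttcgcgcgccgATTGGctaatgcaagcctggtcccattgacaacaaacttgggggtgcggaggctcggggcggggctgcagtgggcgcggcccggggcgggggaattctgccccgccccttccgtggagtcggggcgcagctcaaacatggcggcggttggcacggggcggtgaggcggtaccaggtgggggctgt
Mvd: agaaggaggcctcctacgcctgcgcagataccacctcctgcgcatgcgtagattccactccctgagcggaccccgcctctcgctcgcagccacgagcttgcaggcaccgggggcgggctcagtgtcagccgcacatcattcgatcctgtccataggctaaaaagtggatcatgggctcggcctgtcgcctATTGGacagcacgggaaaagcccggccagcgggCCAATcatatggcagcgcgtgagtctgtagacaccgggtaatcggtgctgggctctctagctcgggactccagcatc

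Of the 4 regulators, Insig1 was the 1 called at 3 weeks. Insig1, which retains Scap in the endoplasmic reticulum and is itself an SREBP target, was at 7.87, 8.01 and 7.50 at 0 weeks and at 6.57, 6.73 and 6.96 at 3 weeks. It fell by 1.04 (SE 0.26, adjusted p = 0.0395), but the call was lost when any 1 of these 6 arrays was left out. Srebf2, the SREBP gene of the sterol branch, was at 10.35, 10.10 and 9.58 and then at 9.17, 9.70 and 9.28, so 1 array at 3 weeks lay above the lowest at 0 weeks. Its difference of -0.63 (SE 0.23, adjusted p = 0.180) was not called. Scap was at 6.12, 5.83 and 5.96 and then at 5.44, 6.29 and 5.74, a difference of -0.15 (SE 0.24, adjusted p = 0.839) with full overlap. Stard4, a cytosolic sterol carrier, differed by -0.26 (adjusted p = 0.694) at values between 3.99 and 4.63, in the dim part of the arrays.

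None of the 10 fatty acid synthesis genes was called at 3 weeks. An unadjusted p under 0.05 was found for 3 of them and for 3142 of all 19505 genes. Their median difference was -0.29, beside -0.89 for the sterol enzymes, and 8 of the 10 lay below 0. The difference between these lists was not tested. Fasn, the fatty acid synthase, was at 10.64, 10.59 and 9.79 at 0 weeks and at 9.47, 9.92 and 9.55 at 3 weeks, a difference of -0.69 (SE 0.26, adjusted p = 0.192). Acss2, which makes cytosolic acetyl-CoA from acetate, came closest to the threshold with values of 7.38, 7.77 and 7.83 and then 6.94, 6.80 and 6.84. These groups did not overlap, and the difference of -0.80 (SE 0.21, adjusted p = 0.0539) passed the threshold under 9 of 24 alternatives. Elovl5, an elongase of polyunsaturated fatty acids, was apart in the same way at -0.61 (SE 0.18, adjusted p = 0.0828). Acly, the citrate lyase that supplies both pathways with acetyl-CoA, differed by -0.27 (adjusted p = 0.561), Elovl6, an elongase of saturated chains, by -0.30 (adjusted p = 0.475) and Fads2, a desaturase, by -0.31 (adjusted p = 0.465). Scd1, the stearoyl-CoA desaturase, and Fads1, a second polyunsaturated desaturase, differed by 0.017 and -0.013, with 95% confidence intervals of -0.35 to 0.39 and -0.39 to 0.37. Me1, the malic enzyme that supplies NADPH, was the 1 member with all arrays higher at 3 weeks (10.8% of all genes), by 0.23 (adjusted p = 0.553).

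Acaca, the acetyl-CoA carboxylase that commits carbon to fatty acids, split by replicate. It was at 7.82, 7.71 and 6.67 at 0 weeks and at 7.56, 7.93 and 6.39 at 3 weeks, with replicate 3 over 1 log2 unit below the others in both groups. At 12 weeks it was at 6.87, 6.21 and 6.36 in wild-type arrays and at 6.45, 5.93 and 5.92 in deficient ones. Its difference at 3 weeks was -0.11 (SE 0.36, adjusted p = 0.927) and at 12 weeks -0.92 (SE 0.36, adjusted p = 0.229), and neither was called. In the 0-week group replicate 3 was the lowest array for 7 of the 10 fatty acid enzymes, 9 of the 16 sterol enzymes and 32.5% of all genes.

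**Figure D3:**
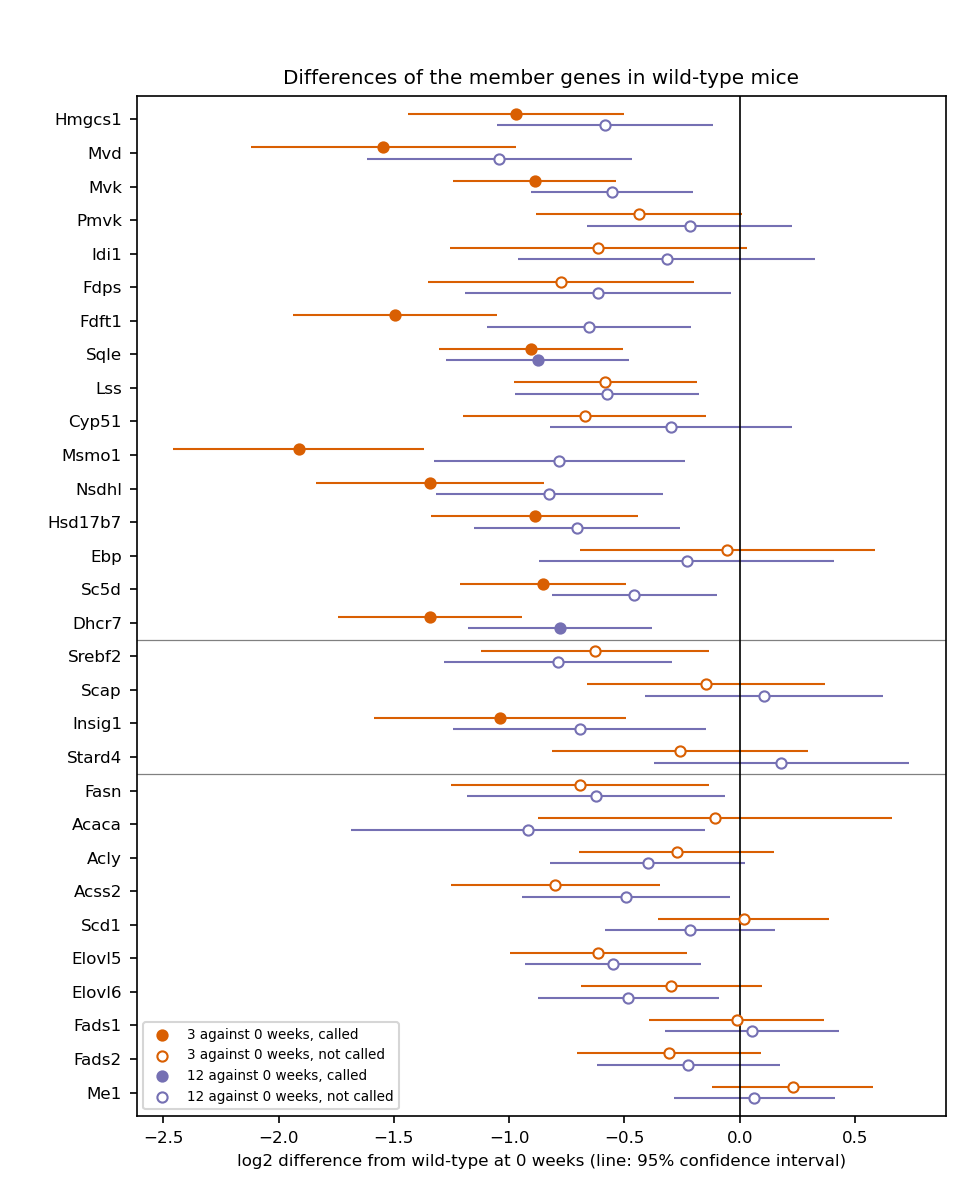
The horizontal axis is the log2 difference from wild-type at 0 weeks for each member, with its 95% confidence interval, at 3 weeks (orange) and 12 weeks (purple). Filled points are called at an adjusted p under 0.05. At 3 weeks 10 sterol enzymes and Insig1 are filled, at 12 weeks only Sqle and Dhcr7 are, and no fatty acid enzyme is filled at either time. Both comparisons share the 0-week arrays.

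After 12 weeks of cuprizone the sterol enzymes of wild-type mice were all below their 0-week means, and fewer of them were called than at 3 weeks. Sqle and Dhcr7 were called lower, 2 of 30 members (6.67%) against 0.523% of all genes, and no member was called higher, against 2.11%. The 3 arrays all lay below those at 0 weeks for 13 members, against 9.95% of all genes. The median over the sterol enzymes was -0.60, over all members -0.55 and over all genes -0.013. Oligodendrocyte markers were lower in the same comparison, with a median of -0.76, 10 of 11 below 0 and 1 called (Mag, a myelin protein). Their mean was 9.34, 8.80 and 8.59 at 12 weeks, below all 0-week arrays. With that mean as a covariate the sterol median was -0.73, the SE grew 1.37 times and no member was called. With the microglial mean instead it was -0.35 and the SE grew 2.03 times. With the homeostatic astrocyte mean, a choice made with the data already seen, it was -0.42 and the SE grew 1.39 times. No member was called in either fit, and in the microglial fit no gene at all was called. Each of these means fully separated the 12-week from the 0-week arrays, so marker level and diet cannot be told apart. Sqle was at 5.68, 6.18 and 6.17, a fall of 0.88 (SE 0.19, adjusted p = 0.0224) that is close to its fall at 3 weeks. Dhcr7 was at 8.54, 8.21 and 8.44, a fall of 0.78 (SE 0.19, adjusted p = 0.0389). Neither call is secure: no member passed without replicate 1 or 2 of the 0-week group or replicate 2 of the 12-week group, 1 did without replicate 1 of the 12-week group or replicate 2 of the deficient group, and 4 did without replicate 3 of the 12-week group. At an unadjusted p under 0.05, 19 of the 30 members passed, and 2938 of all genes.

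At 12 weeks replicate 3 lay nearer the untreated level than the other 2 arrays for most sterol enzymes. Msmo1 was at 7.63, 7.13 and 8.32, Nsdhl at 7.98, 7.78 and 8.75 and Hsd17b7 at 6.16, 6.16 and 6.98. For these genes replicate 3 fell 0.16 to 0.25 short of the 0-week mean. Hmgcs1 was at 6.45, 6.93 and 7.28, Sc5d at 8.81, 8.44 and 8.97 and Fdft1 at 9.26, 8.76 and 9.49, with the same array highest. Replicate 3 was the highest of the group for 13 of 16 sterol enzymes and for 34.6% of all genes, and for 6 of the 16 it reached at least the lowest 0-week array. It was also the array with the fewest oligodendrocyte transcripts of the 12-week wild-type group (mean 8.59) and the highest homeostatic astrocyte markers (9.69), and the part of either in this result was not tested. Without it, the median of the sterol enzymes was -0.75, and Msmo1 (-1.10, adjusted p = 0.0342), Nsdhl (-1.12, adjusted p = 0.0180) and Hsd17b7 (-0.98, adjusted p = 0.0184) passed the threshold while Dhcr7 did not (adjusted p = 0.0898).

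The members that were called only at 3 weeks gave the following at 12 weeks. Mvd was at 6.65, 6.20 and 6.84, all below its 0-week arrays, with a difference of -1.04 (SE 0.27, adjusted p = 0.0536). Mvk was at 6.05, 5.57 and 5.91, a difference of -0.55 (adjusted p = 0.0991). Insig1 was at 6.96, 6.74 and 7.60, and its highest array overlapped the 0-week range, with a difference of -0.69 (adjusted p = 0.201). Fdft1 (-0.65), Nsdhl (-0.83), Msmo1 (-0.78), Hmgcs1 (-0.58), Hsd17b7 (-0.71) and Sc5d (-0.46) had adjusted p from 0.0761 to 0.208. Srebf2 was at 9.53, 9.12 and 9.01, below all its 0-week arrays, with a difference of -0.79 (SE 0.23, adjusted p = 0.0935), the largest among the regulators at this time. Scap was at 6.41, 6.21 and 5.61 and differed by 0.11 (adjusted p = 0.897). Fasn was at 10.25, 9.27 and 9.63, a difference of -0.62 (adjusted p = 0.273) with wide spread. The fatty acid enzymes as a group had a median of -0.44 and none was called.

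The 12-week and 3-week wild-type groups were also compared directly. No member was called, against 16 of all genes (0.082%). The sterol enzymes lay higher at 12 weeks in 15 of 16 cases, with a median of 0.36, while the fatty acid enzymes were split 5 to 5, with a median of -0.032. Without replicate 3 of the 12-week group the sterol median was 0.19, with 5 of 16 below 0. This comparison shares the 3-week arrays with the earlier one, so a low 3-week value enters both. Msmo1 came closest, 1.13 higher (SE 0.26, 95% confidence interval 0.59 to 1.67, adjusted p = 0.0897) with no overlap between the groups, and Fdft1 followed at 0.84 (SE 0.21, adjusted p = 0.123). Dhcr7 was 0.56 higher (adjusted p = 0.245), also without overlap. Sqle and Lss differed by 0.030 and 0.0067 (95% confidence intervals -0.37 to 0.43 and -0.39 to 0.40). Of 30 members, 6 had an unadjusted p under 0.05, as did 2222 of all genes. Groups did not overlap, with 12 weeks higher, for 4 members, against 7.83% of all genes.

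The loss of GnT-IX was examined at 12 weeks of cuprizone, where no member was called, against 5 of all genes (0.0256%). An unadjusted p under 0.05 was found for 2 of 30 members, Scap and Elovl5, and for 1363 of all 19505 genes. The median was -0.068 over the sterol enzymes and -0.14 over the fatty acid enzymes, with -0.013 over all genes. Without replicate 3 of the wild-type 12-week group the sterol median turned to 0.11, with 6 of 16 below 0. In the deficient arrays Msmo1 was at 7.65, 7.59 and 7.22, Nsdhl at 8.43, 8.20 and 7.88 and Fdft1 at 9.17, 9.06 and 8.68. All of these lay within the range of the wild-type 12-week arrays or just below its low end. The difference from wild-type was -0.21 for Msmo1 (95% confidence interval -0.75 to 0.34), 0 for Nsdhl (-0.49 to 0.49) and -0.20 for Fdft1 (-0.64 to 0.24).

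The other members called at 3 weeks had the following levels in deficient mice. Dhcr7 was at 8.51, 8.23 and 7.87, Sqle at 6.25, 6.08 and 6.09 and Mvd at 6.34, 6.33 and 6.23. Each deficient array lay below the lowest untreated wild-type array of the same gene. Hmgcs1 was at 6.78, 6.47 and 6.26, Mvk at 5.66, 5.81 and 5.68 and Sc5d at 8.60, 8.70 and 8.53. Hsd17b7 was at 6.59, 6.37 and 6.39 and Insig1 at 7.34, 6.66 and 6.42. Over all members, the 3 deficient arrays all lay below the 3 untreated wild-type arrays for 20 of 30, 12 of them sterol enzymes, against 13.1% of all genes, in a contrast in which genotype, diet and age cannot be told apart. Among the regulators, Scap was at 5.64, 5.29 and 5.13, the largest difference from wild-type at 12 weeks among the members (-0.72, SE 0.24, adjusted p = 0.523), and Srebf2 was at 9.35, 9.13 and 8.77. Fasn was at 9.56, 9.68 and 9.31. Elovl5 was the member whose deficient arrays all lay below the wild-type ones at 12 weeks (8.66, 8.48 and 8.61 against 9.13, 8.68 and 9.16), against 5.57% of all genes, with a difference of -0.41 (adjusted p = 0.690). The choroid plexus markers were high in replicates 1 and 2 of this group. With their mean as a covariate the sterol median between genotypes was -0.095, with 11 of 16 below 0, and the fatty acid median was -0.18. The SE of the sterol enzymes grew 1.46 times and no member was called. Beyond this fit, the part of the choroid plexus markers was not tested. Other marker lists differed between genotypes as well, with no gene of them called. All 7 ependymal markers lay higher in deficient mice (median 1.04), as did 8 of 11 oligodendrocyte markers (0.22). All 14 microglial (-0.565) and all 17 homeostatic astrocyte markers (-0.17) lay lower. With the microglial mean as a covariate the sterol median was -0.12. The part of the ependymal markers was not tested.

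Other genes of the pathways were taken from lists drawn up with earlier results of these data known. Of 16 other sterol pathway genes measured, Tmem97 was the 1 called at 3 weeks, and the median was 0.11. Tmem97, a membrane protein of the endoplasmic reticulum and a known SREBP target, was at 7.22, 7.36 and 7.67 at 0 weeks and at 6.14, 6.06 and 6.88 at 3 weeks, a fall of 1.06 (SE 0.21, adjusted p = 0.0131). Of 34 other fatty acid genes, 5 were called lower and none higher at 3 weeks, with a median of -0.21. Elovl2, an elongase of very long polyunsaturated chains, was at 9.32, 9.34 and 9.01 and then at 7.64, 7.83 and 7.72, a fall of 1.49 (SE 0.23, adjusted p = 0.00300). Thrsp, a lipogenic regulator, fell by 1.28 (adjusted p = 0.00551), and the fatty acyl dehydratases Hacd3 and Hacd2 fell by 1.10 (adjusted p = 0.0138) and 0.81 (adjusted p = 0.0333). At 12 weeks Elovl2 (-0.97, adjusted p = 0.0351) and Fads6 (-1.23, adjusted p = 0.0251) were called lower. Both lost that call without replicate 1 or 2 of the 0-week group or replicate 2 or 3 of the 12-week group. At 3 weeks the calls of Elovl2 and Thrsp held without any single array, while Tmem97 lost its call without replicate 3 of the 0-week or replicate 1 of the 3-week group, and Hacd3 without replicate 1 of either. Hacd2 lost its call without any 0-week array or replicate 1 or 3 of the 3-week group.

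Genes that respond to or remove excess sterol went both ways. Of 15 measured, 2 were called higher and 2 lower at 3 weeks. Abcg1, a sterol exporter and target of the sterol-sensing LXR receptors, was at 5.91, 6.92 and 6.74 at 0 weeks and at 7.65, 7.64 and 8.13 at 3 weeks, a rise of 1.28 (SE 0.30, adjusted p = 0.0296). Mylip, an LXR target that marks lipoprotein receptors for degradation, was at 8.36, 7.72 and 8.21 and then at 10.23, 9.76 and 8.73, a rise of 1.48 (SE 0.32, adjusted p = 0.0223). For both genes the groups were apart, in the direction opposite to that of the sterol enzymes. Abcg1 lost its call without replicate 1 or 3 of either group, Mylip without any 0-week array or 3-week replicate 1 or 2. Lcat lost its call without replicate 1 of the 0-week group. Lcat, which esterifies cholesterol on lipoproteins, fell by 1.34 (adjusted p = 0.00993) and Cyp7b1, an oxysterol hydroxylase, by 0.81 (adjusted p = 0.0492), a call lost when any 1 of the 6 arrays compared was left out. With the microglial mean as a covariate none of these 4 genes, nor any called member, kept its call, and the differences were 1.61 for Abcg1, 0.65 for Mylip, -0.63 for Lcat and -0.51 for Cyp7b1. At 12 weeks Mylip was higher by 1.38 (adjusted p = 0.0344), a call lost without any 0-week array, replicate 1 or 2 of the 12-week group or replicate 2 of the deficient group, and Npc1, which releases cholesterol from lysosomes, was lower by 0.78 (adjusted p = 0.0331), a call that was also lost without any 1 of the 6 arrays. In the genotype comparison and in that of 12 with 3 weeks no gene of these lists was called.

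Homeostatic astrocyte markers fell in the same comparison as the sterol enzymes, while Gfap, an astrocyte filament gene outside that list, rose. Gfap was at 6.55, 6.21 and 5.90 at 0 weeks and at 7.93, 8.92 and 7.71 at 3 weeks. It was called higher at 3 weeks (1.97, SE 0.46, adjusted p = 0.0305) and at 12 weeks (2.28, SE 0.46, adjusted p = 0.0172). Slc1a3, the gene of the selection marker GLAST, is on that list and was called lower at 3 weeks (-1.35, SE 0.27, adjusted p = 0.015). This call was lost without replicate 1 of the 0-week or replicate 3 of the 3-week group, and with the microglial covariate. It was also lost with the astrocyte covariate, but that mean includes Slc1a3 itself and left no gene called at 3 weeks. The loss in that fit therefore says nothing about Slc1a3. At 12 weeks Slc1a3 differed by -1.05 (SE 0.27, adjusted p = 0.0545) and was not called. Whether its fall changed which cells were selected was not tested. Of 17 homeostatic astrocyte markers, 9 were called lower and none higher at 3 weeks, with a median of -0.98. Their mean was 9.04, 9.40 and 9.12 in the 3-week arrays and 9.63, 9.24 and 9.69 in the wild-type 12-week arrays. The sterol enzymes averaged 7.67, 7.58 and 7.48 at 0 weeks, 6.53, 6.47 and 6.87 at 3 weeks, 6.89, 6.75 and 7.31 at 12 weeks and 6.99, 7.06 and 6.76 in deficient mice. Each array's astrocyte marker mean was also added to the fit, a choice made with the data already seen. The median of the sterol enzymes at 3 weeks was then -0.69 and all 16 lay below 0, while the SE grew 1.84 times. No member was called, but neither was any of all genes in this fit, so the lack of calls is not particular to the members. The median of the fatty acid enzymes was then 0.21, above 0. With the microglial mean as a covariate the sterol median was -0.78, the SE grew 1.60 times and no member was called. At 3 weeks the groups were fully separated by either marker mean, so marker level and diet cannot be told apart. The oligodendrocyte mean was 9.50, 9.31 and 9.92 at 3 weeks, overlapping the 9.57, 9.82 and 9.47 at 0 weeks, and with it as a covariate the sterol median was -0.89 and 10 of 16 were called.

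**Figure D4:**
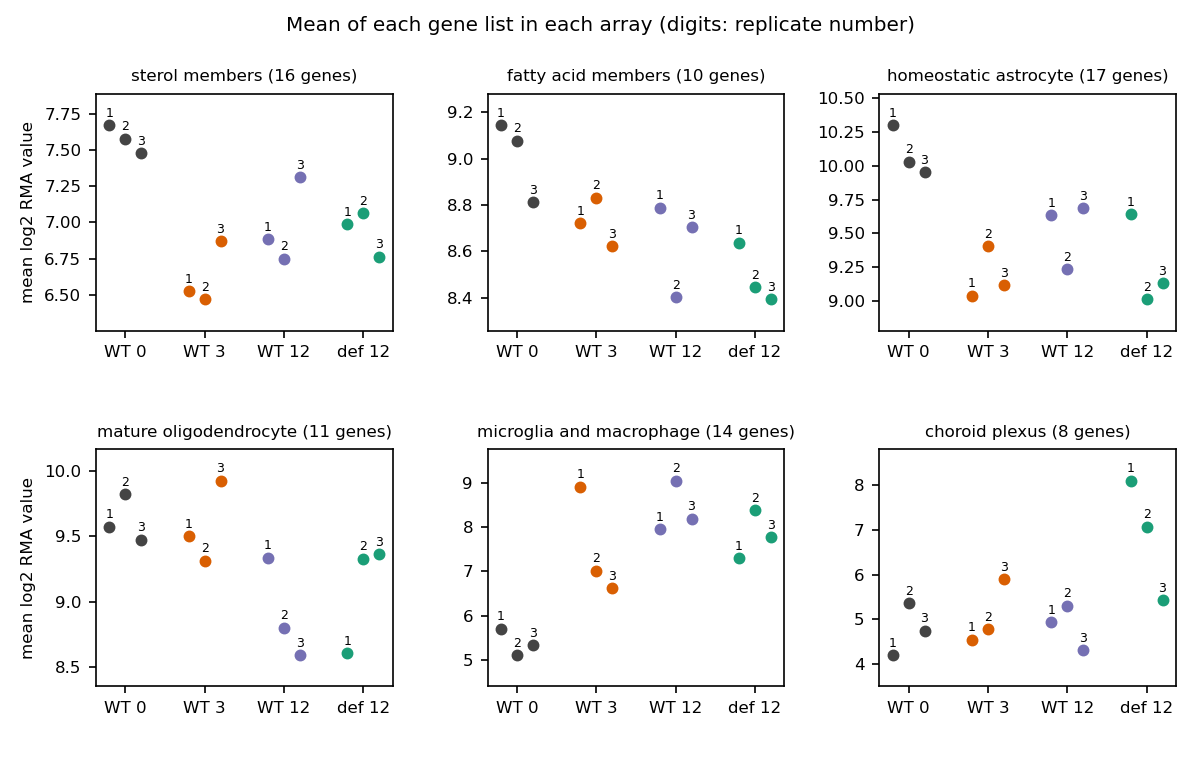
Points are the mean log2 values of the genes of a list in single arrays, with the replicate number above each point and each panel on its own axis. The sterol enzymes and the homeostatic astrocyte markers are both highest at 0 weeks, the microglial markers are lowest there, and the oligodendrocyte markers at 3 weeks (9.31 to 9.92) overlap those at 0 weeks (9.47 to 9.82).

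Genes outside the list that followed the mean of the sterol enzymes most closely were sought over the 12 arrays, with Pearson's r as the measure of likeness and as a description only, since the group differences enter it. They were Htra1 (0.985), Cap2, Myorg, Slc39a12, Tst, Entpd2, Colgalt2, Lama3, Lypd6 and Gja1 (0.929). All 10 were called lower at 3 weeks, with differences from -0.66 for Cap2 to -1.88 for Lama3. Htra1, a secreted serine protease, was at 11.36, 11.26 and 11.06 at 0 weeks, at 9.81, 9.81 and 10.34 at 3 weeks and at 10.41, 10.06 and 10.71 at 12 weeks. Its replicate 3 was the highest at both later times, as for most of the sterol enzymes. Gja1 encodes the main connexin of astrocytes and is also on the homeostatic astrocyte list.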

How the data were processed

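Expression was measured on 12 arrays of GLAST-selected white matter cells. Per the submitters' processing notes, the authors used Affymetrix Expression Console 1.4 with RMA, and the deposited values are log2 signals per transcript cluster. RMA gives arrays a like distribution and compresses changes of dim transcripts. Per the labels' protocols, RNA was extracted with either of a pair of kits. The sources used here do not say which sample had which, so a kit effect cannot be told apart from the groups. They do not give the arrays' genome build. Of 22206 clusters, 19572 had 1 symbol, all matched to RefSeq genes (GRCm38.p6) by Entrez identifier, and the other 2634 are unnamed here. The brightest cluster stood for each of 55 genes with several, which left 19505 genes with no filter on dim ones.

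All 12 arrays were fitted with 1 mean per group in limma 3.58.1 under R 4.3.3 (two-sided moderated test after lmFit and eBayes), using Benjamini-Hochberg adjustment over all genes at a threshold of 0.05. The test was tested on simulated data. SE and 95% confidence intervals (unadjusted) come from this fit, values per list are medians, and the number of arrays limits precision. Replicates are biological per the labels. Members and lists were chosen with earlier results of these data known. All measured members could be named, along with up to 4 called genes per pathway list and comparison, the 10 genes most like the sterol mean, and Slc1a3, Gfap and Mgat5b. Alternatives covered normalization, centring, a filter on dim genes, cluster choice, variance model, array weights, the arrays fitted, marker means as covariates, a block for the replicate number and leaving out each array. Promoter windows were RefSeq's. Figures were drawn with matplotlib 3.10.9.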

Additional observations from a re-analysis of the deposited data

How the results depend on the processing

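Of the 11 calls at 3 weeks, those of Mvd, Fdft1, Msmo1, Nsdhl and Dhcr7 held in 22 of 24 alternatives, all but the microglial and astrocyte marker covariates. With the microglial covariate 0 members were called at 3 weeks and the median was -0.56, and with the astrocyte covariate, chosen after seeing the data, 0 and -0.41, with larger SEs. Leaving out single arrays gave 5 to 12 members called at 3 weeks and medians from -0.73 to -0.51. At 12 weeks the 2 calls became 7 with array weights, and 0 with the microglial, oligodendrocyte or astrocyte covariate, the last with a median of -0.29. Leaving out single arrays gave 0 to 4 calls and medians from -0.63 to -0.41 at 12 weeks. Deviations from the group means correlated with r from -0.28 to 0.22 between same-numbered arrays, and from -0.30 to 0.34 between differently numbered ones. For replicate 3 the same-number r was above 0 in every pair of groups (0.051 to 0.19), and for replicates 1 and 2 it lay on both sides of 0. With 3 arrays per group these values cannot decide whether the numbers pair the samples. With the replicate number as a block, 10 members were called at 3 weeks and 1 at 12 weeks, and 0 in the other comparisons. No member was called between 12 and 3 weeks or between genotypes under any alternative run. Over all genes, calls ranged from 0 to 887 at 3 weeks, 0 to 919 at 12 weeks, 0 to 146 between 12 and 3 weeks and 1 to 49 between genotypes. The astrocyte covariate gave 0 at 3 weeks, and the microglial covariate gave 0 at 12 weeks and between 12 and 3 weeks. In these fits the lack of member calls is thus not particular to the members. The cause of these shifts was not tested.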
